A study of Caenorhabditis elegans with 12 samples.

Results

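Feeding of double-stranded RNA (dsRNA) matching oma-1 was compared with feeding of L4440, the vector that serves as the dsRNA control, in control Caenorhabditis elegans, by small RNA sequencing of adult whole animals. The comparison takes in 6 of the 12 samples of the study, 3 on each food, and every annotated gene: 46726 identifiers were counted, 16329 passed a filter on low counts and 2018 reached the level at which differences were described. The control strain is YY1312, which carries hrde-1(gg594), and was grown at 20 °C. The titles call these samples wild-type, although both foods were given to the same hrde-1(gg594) strain, and the sources used here do not give what the allele changes. The remaining 6 samples come from YY1192, which carries hrde-1(gg594) together with hrde-2(gg517), on the same foods, and enter the low-count filter and the scaling, and otherwise only stand as a second, separate pair of columns beside the control pair.

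In RNA interference, worms take up dsRNA from food bacteria through the channel SID-1, cut it into primary small interfering RNAs, and use RNA-dependent RNA polymerases to copy many secondary 22G RNAs from the matching mRNA. Secondary Argonautes carry these RNAs, and HRDE-1 carries them into germline nuclei, where silencing can pass to offspring. OMA-1 is a CCCH zinc-finger protein that acts with its paralog OMA-2 in oocyte maturation. The libraries were cloned by a protocol that does not require a 5′ monophosphate, so that 22G RNAs, which begin with a triphosphate, were captured together with primary small interfering RNAs, microRNAs (miRNAs), Piwi-interacting RNAs (piRNAs) and fragments of longer RNAs.

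The deposited table gives 1 pooled count column for each group of 3 samples, so that the spread between samples could not be measured and no difference below has a test. Gene-assigned reads numbered 25323188 on L4440 and 34238988 with oma-1 dsRNA. Reads are given as counts, and levels as CPM, each count divided by its library's total after adjustment with trimmed-mean-of-M-values (TMM) factors. By these factors the oma-1 column was 1.39 times as deep as the L4440 column. Brackets hold 95% counting intervals, which cover counting error only, since each group is 1 pooled column. Where PCR copies of a molecule were counted as separate reads, these intervals are too narrow even for counting error. The table does not give strand, length or first base of the reads, so that antisense small RNAs, sense fragments of the mRNA and products of the fed dsRNA at a gene cannot be told apart. A read that matches several genes can appear at each of them, and genes marked for this are said to share reads.

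The fed gene had the largest difference of the 2018 features described. The gene oma-1 (WBGene00003864; chromosome IV, bases 8888976 to 8890999 of the plus strand in WBcel235) had 37 reads on L4440 and 10881 with oma-1 dsRNA. These are 2.26 CPM (1.59 to 3.12) and 478 CPM (469 to 487), a ratio of 211 (153 to 300.1). Per kilobase of exon the level was 1.26 CPM on L4440 and 265 CPM with oma-1 dsRNA. In the ranking of 13226 filtered protein-coding genes that do not share reads, oma-1 moved from rank 2626 to rank 19 by this level per kilobase. Its share of all reads at protein-coding genes without shared reads was 0.00636% (Wilson interval 0.00462 to 0.00877%) on L4440 and 1.34% (1.31 to 1.36%) with oma-1 dsRNA. The genes above it at rank 1 to 3 were C03B8.3 (2561 CPM per kilobase), Y53F4B.12 (699) and F37D6.3 (531), followed within the first 12 by several histone genes. All protein-coding genes without shared reads had a summed ratio of 1.005, and 0.992 with oma-1 left out. The scaling was centred largely on these same genes, so a total near 1 follows in large part from it.

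Neighbouring genes showed no such excess. No annotated feature overlaps oma-1, and the 5 nearest protein-coding genes on either side held 120 reads on L4440 and 182 with oma-1 dsRNA, a ratio of 1.09 (0.860 to 1.38). C09G9.5, whose end is 409 bp upstream, had 4 reads on both foods. spr-2, whose start is 463 bp downstream on the same strand, had 22 and 20 reads, a ratio of 0.653 (0.338 to 1.25). None of the 10 genes reached 5 CPM, and rad-54.L2 was the most covered, with 61 and 89 reads.

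**Figure D1:**
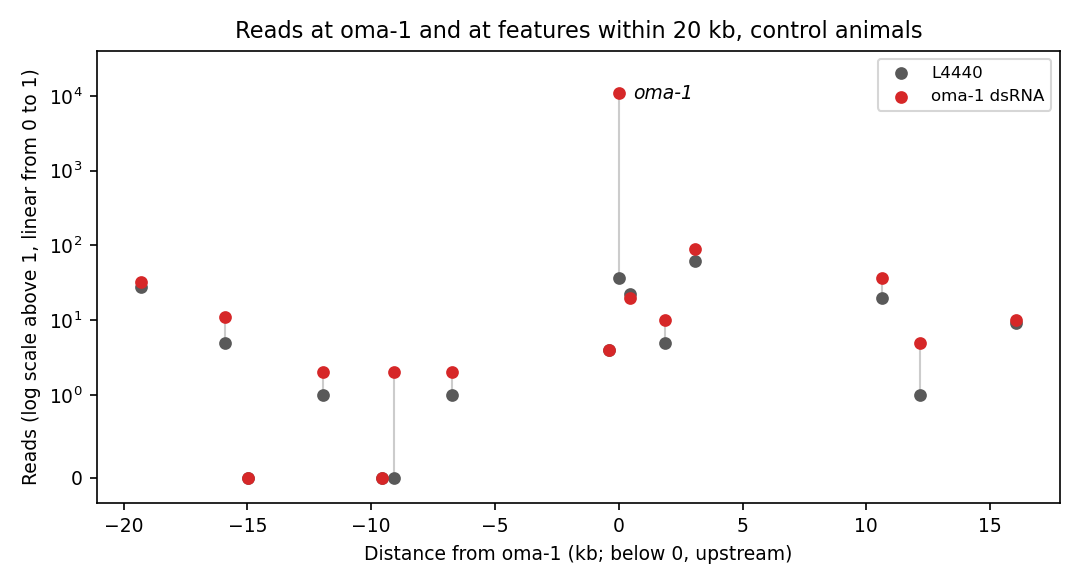
Reads at oma-1 and at the 14 annotated features within 20 kb, by distance from oma-1 in kb, in control animals on L4440 (grey) and on oma-1 dsRNA (red); the vertical axis is logarithmic above 1 read and linear from 0 to 1. Reads at oma-1 went from 37 to 10881, while the 14 features together held 157 and 224.

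Genes related to oma-1 by protein family were then read one by one. The list of germline CCCH zinc-finger genes has 13 members, and without oma-1 they held 229 reads on L4440 and 419 with oma-1 dsRNA, a ratio of 1.31 (1.12 to 1.55). Most of that excess was at moe-3, which encodes a CCCH protein of the OMA family. Its reads numbered 3 on L4440 and 79 with oma-1 dsRNA, a ratio of 18.9 (6.24 to 93.7). With moe-3 left out as well, the remaining 11 genes held 226 and 340 reads, a ratio of 1.08 (0.910 to 1.28). The closer paralog oma-2 had 38 and 66 reads, a ratio of 1.25 (0.824 to 1.91), and its interval holds 1. The early embryonic regulators mex-5 (63 and 94 reads), mex-1 (27 and 54), pos-1 (38 and 40) and pie-1 (9 and 12) had intervals that hold 1 as well.

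The levels of moe-3 lay below the level at which differences were otherwise described, so every feature that passed the filter was examined by a rule chosen after the data had been seen: the counting interval of its ratio had to lie wholly beyond 2-fold. Of 16329 features, 19 were higher on oma-1 dsRNA by this rule (0.116%) and 7 lower (0.0429%). The 19 were 15 protein-coding genes, 3 noncoding RNA genes and 1 identifier absent from the annotation, and 15 of them stayed under 5 CPM on both foods. The hrde-2 columns took part in the low-count filter and the scaling behind this choice, but their own ratio on the 2 foods was not part of the rule. On the TMM scale they were 4.08 (L4440) and 1.33 (oma-1 dsRNA) times as deep as the control L4440 column. There 69 features (0.423%) had intervals wholly beyond 2-fold on the higher side and 14 (0.0857%) on the lower side.

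Of the 19 features higher in control animals, 7 lay wholly above 2-fold in hrde-2 animals as well, and 6 without oma-1. The whole interval was above 1 for 10 of the 19 (52.6%), against 8.15% of all features, and below 1 for 1 of the 19 (5.26%), against 4.93%. The 10 include oma-1 itself, and the noncoding RNA genes K11E4.9 and K11E4.11, which may be the same reads. The low-count filter could pass a feature through 1 column. Among the 10, nas-33, nlp-79, Y67D2.5, C34F11.1 and flp-13 passed only through the oma-1 dsRNA columns. These shares are therefore a description and not a test of agreement between the genotypes. The 6 features besides oma-1 were moe-3, nas-33, nlp-79, Y67D2.5, C34F11.1 and the noncoding RNA gene F28H6.9. They stand on chromosomes II, III, IV and X, and none is among the 14 features within 20 kb of oma-1.

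The reads behind these 6 features are few, and their shared direction is fixed by how they were picked from the 19, so their values are a description. At moe-3, on chromosome II, the hrde-2 columns held 34 reads on L4440 (0.510 CPM) and 44 with oma-1 dsRNA (2.02 CPM), the latter column being the shallower, for a ratio of 3.95 (2.47 to 6.38). nas-33, an astacin-family metalloprotease gene on the X chromosome, had 2 and 48 reads in control animals, for a ratio of 17.2 (4.52 to 146), and 8 and 44 in hrde-2 animals, for a ratio of 16.8 (7.83 to 41.3). nlp-79, a neuropeptide-like gene on chromosome IV, had 4 and 57 reads in control animals, for a ratio of 10.2 (3.78 to 38.8), and 10 and 52 in hrde-2 animals, for a ratio of 15.9 (7.99 to 35.1).

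In both genotypes nas-33 and nlp-79 were thus at 10 reads or fewer on L4440 and at 44 or more with oma-1 dsRNA. Y67D2.5, on chromosome III, had 2 and 44 reads in control animals, for a ratio of 15.8 (4.12 to 135), and 12 and 43 in hrde-2 animals, for a ratio of 10.95 (5.67 to 22.8). C34F11.1, on chromosome II, had 4 and 48 reads in control animals, for a ratio of 8.62 (3.16 to 32.9), and 8 and 14 in hrde-2 animals, for a ratio of 5.35 (2.09 to 14.7). F28H6.9, which carries the mark for shared reads, had 13 and 94 reads in control animals, for a ratio of 5.19 (2.89 to 10.1), and 31 and 69 in hrde-2 animals, for a ratio of 6.80 (4.39 to 10.8).

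The other features gave mixed readings. flp-13, a gene of an FMRFamide-like neuropeptide, had 1 and 47 reads in control animals, for a ratio of 33.8 (5.77 to 1361), and 13 and 11 in hrde-2 animals, for a ratio of 2.59 (1.05 to 6.26). K11E4.9 and K11E4.11, noncoding RNA genes on X with near-equal reads that may be the same reads, had ratios of 2.11 and 2.12 in control and 1.87 and 1.88 in hrde-2. clec-223, a C-type lectin gene, went the opposite way: it had 30 and 131 reads in control animals, for a ratio of 3.14 (2.096 to 4.83), and 505 and 120 in hrde-2 animals, for a ratio of 0.726 (0.590 to 0.888). For the remaining 8, among them Y39C12A.9 (6 and 56 reads in control), Y53F4B.39 (1 and 20) and C09F12.3 (0 and 18), the hrde-2 interval holds 1.

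**Figure D2:**
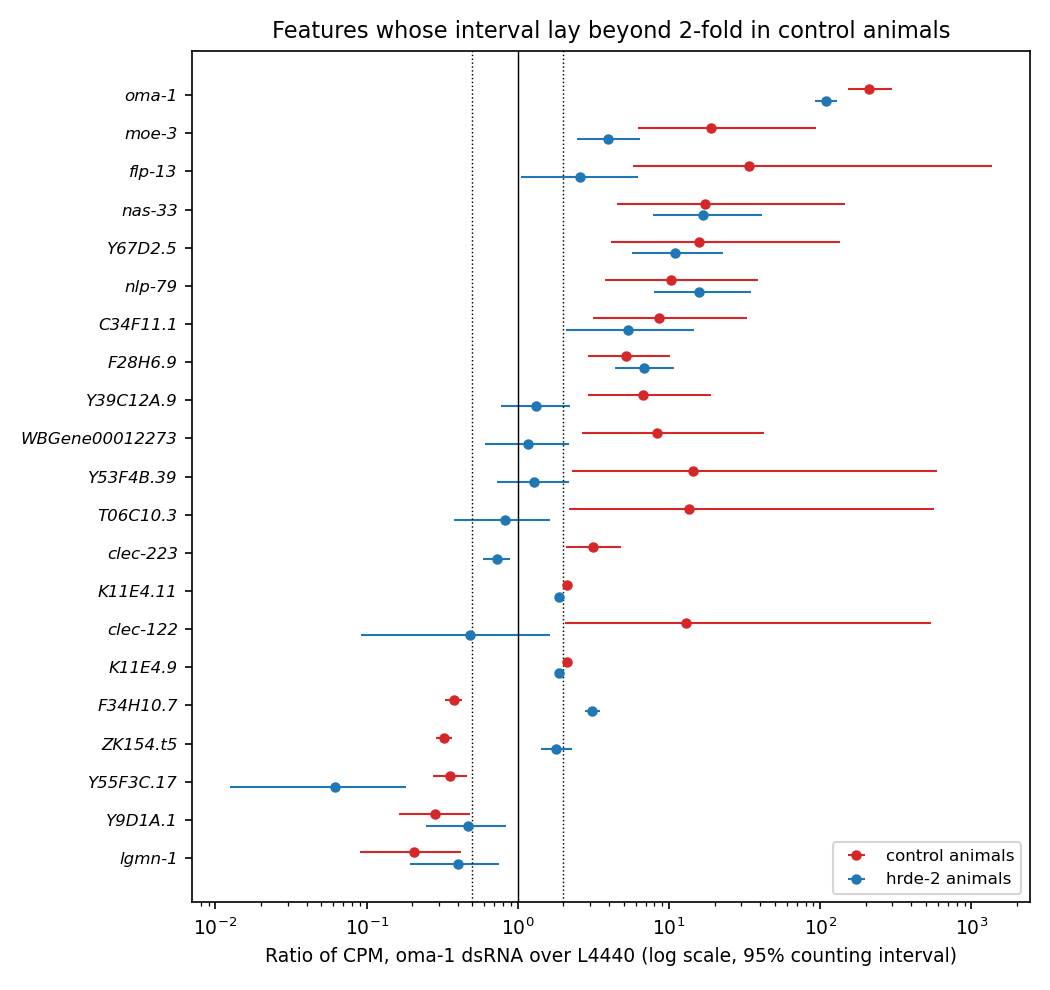
Ratio of CPM on oma-1 dsRNA over L4440, on a logarithmic axis with 95% counting intervals, for features whose interval lay beyond 2-fold in control animals (red), with the same ratio in hrde-2 animals (blue); the solid line marks 1 and the dotted lines 2-fold, and 5 features with 0 reads in a control column are not drawn. oma-1, moe-3, nas-33, Y67D2.5, nlp-79, C34F11.1 and F28H6.9 lie above 2-fold in both genotypes.

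Among the 7 lower features, Y55F3C.17, a protein-coding gene on chromosome IV, was lower beyond 2-fold in both genotypes. In control animals it had 185 reads with L4440 and 92 with oma-1 dsRNA, a ratio of 0.357 (0.275 to 0.461), and 149 and 3 in hrde-2 animals, for a ratio of 0.0615 (0.0125 to 0.183). lgmn-1, a legumain-family protease gene, had 35 and 10 reads in control animals, for a ratio of 0.205 (0.0906 to 0.423), and 84 and 11 in hrde-2 animals, for a ratio of 0.400 (0.192 to 0.753). The long intergenic noncoding RNA gene Y9D1A.1 had 53 and 21 reads in control and 91 and 14 in hrde-2, with both intervals below 1. F34H10.7, a noncoding RNA gene with shared reads, and the transfer RNA (tRNA) gene ZK154.t5 were lower in control (676 and 354 reads, and 916 and 414) but higher in hrde-2, where the ratios were 3.11 (2.78 to 3.49) and 1.80 (1.41 to 2.27). mls-2 and C54D10.4 had 7 and 9 reads on L4440 and 0 with oma-1 dsRNA in control, and their hrde-2 intervals hold 1. The piRNA gene 21ur-2031, just outside the rule in control with 107 and 57 reads, a ratio of 0.383 (0.272 to 0.532), had 174 and 11 reads in hrde-2 animals, for a ratio of 0.193 (0.0947 to 0.354).

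**Figure D3:**
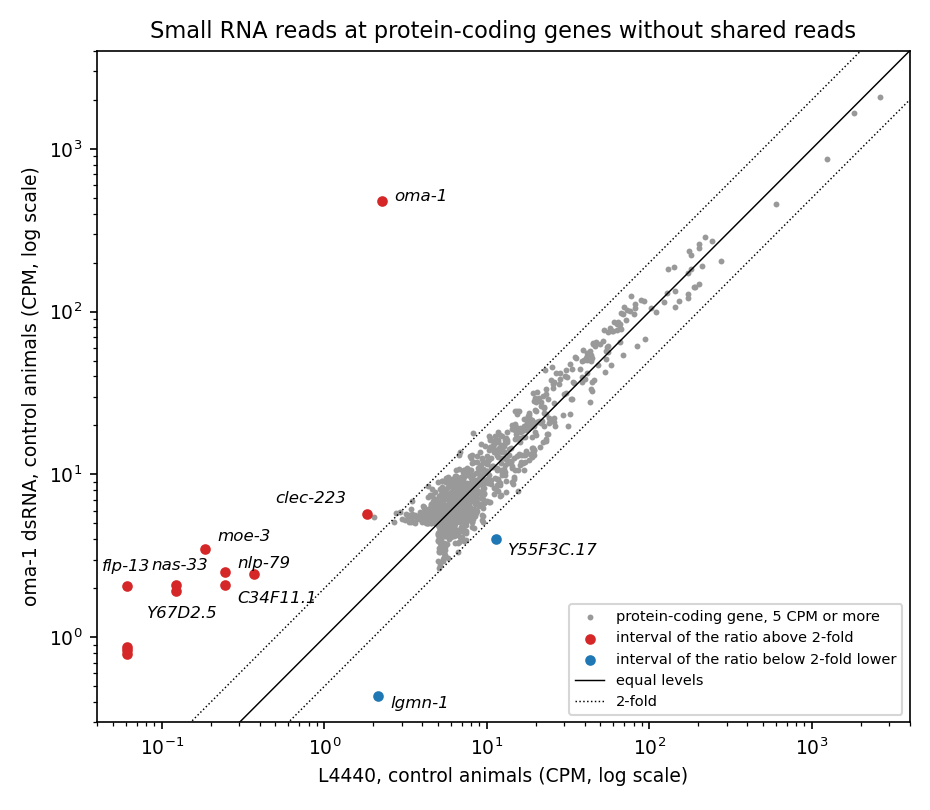
Levels of protein-coding genes without shared reads in control animals on L4440 (horizontal axis, CPM, log scale) and on oma-1 dsRNA (vertical axis, CPM, log scale). Grey points are genes at 5 CPM or more; red and blue points are genes whose counting interval lay beyond 2-fold higher or lower, and genes with 0 reads on either food are not drawn. oma-1 stands at 2.26 and 478 CPM, while moe-3, nas-33, nlp-79, Y67D2.5 and C34F11.1 are under 5 CPM on both foods.

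Among features with enough reads to describe singly, differences were small. At 5 CPM or more in the higher column, 13 of 2018 features lay 2-fold or more above their L4440 level (0.644%) and 6 lay 2-fold or more under it (0.297%), 0.942% in all. The central 95% of log2 differences ran from −0.74 to 0.75. A difference of 1.5-fold was reached by 129 features on the higher side (6.39%) and by 140 on the lower side (6.94%), 13.3% in all. Among 980 protein-coding genes free of shared reads, 5 were 2-fold higher (0.51%) and 1 was lower (0.102%), 0.612% in all. The 5 were oma-1, clec-223 (log2 1.64), ZK666.1 (1.43), unc-10 (1.13) and R04A9.7 (1.07, with 45 and 132 reads). The 1 lower gene was Y55F3C.17 (log2 −1.48). At 1.5-fold 74 were higher and 61 lower (7.55 and 6.22%), 13.8% in all. The numbers just outside 2-fold were close: C35E7.2 and T25G12.6 had log2 differences of 0.9995 and 0.9986, and W02A2.8 −0.98.

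At 20 CPM or more in the higher column, oma-1 was the 1 protein-coding gene without shared reads beyond 2-fold. After it came Y66H1A.5 with 375 and 991 reads, a ratio of 1.90 (1.68 to 2.14), and unc-53, which guides cell migration and axon outgrowth, with 412 and 1046 reads, a ratio of 1.82 (1.63 to 2.048). col-111, a cuticle collagen gene, had a ratio of 1.65, srd-49, a chemoreceptor gene, 1.64, and spr-5, a histone H3 lysine demethylase gene, 1.58. F13E6.2, ech-3, tftc-1 and W01A11.7 lay between 1.56 and 1.63. On the lower side were the histone genes his-66 (513 and 455 reads, ratio 0.637, 0.560 to 0.724), his-4, his-2, his-32 and his-55, the ribosomal protein genes rps-17 and rps-26, the body wall myosin gene unc-54, the chaperone gene hsp-90 and dyc-1, whose loss gives a dystrophin-like muscle phenotype. dyc-1 had 20205 and 19710 reads, a ratio of 0.700 (0.687 to 0.714). The most covered of these genes, C03B8.3, had 42852 and 47616 reads, a ratio of 0.798 (0.788 to 0.808).

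Gene lists were read over members with a mean of 1 CPM or more on the 2 foods, a limit chosen after the data had been seen, because the limit of 5 CPM in the higher column can pass a gene through 1 food alone. Over all 6638 features at that mean, 8.44% were 1.5-fold higher and 8.71% lower, and the median log2 difference was −0.02. For 5002 protein-coding genes free of shared reads these values were 8.46%, 8.78% and −0.02. Medians below are log2 differences, oma-1 dsRNA minus L4440, and list members are not independent, since several families share reads.

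Major sperm protein, ribosomal protein, histone and muscle genes stood lower with oma-1 dsRNA after scaling. Of 52 major sperm protein genes, which encode the cytoskeletal protein of nematode sperm, 37 reached the mean, and all 37 were below 0, with a median of −0.61; 20 of them were 1.5-fold lower and 0 higher. All 21 that reached 5 CPM did so on L4440 only. Over all 52, reads numbered 2982 and 2770, a summed ratio of 0.667 (0.633 to 0.703). Other sperm development genes were lower in sum: over all 34, reads numbered 500 and 538, a summed ratio of 0.773 (0.683 to 0.874). Of these 34 genes 4 reached the mean, with 1 above 0, 3 below and a median of −0.31. spe-8 was the 1 above 0, with 13 and 50 reads (log2 1.45). spe-18 held 239 and 221 of the reads (log2 −0.59). Of 75 cytosolic ribosomal protein genes 70 were below 0, with a median of −0.41. At 1.5-fold 17 were lower (22.7%, against 8.71% of all features) and 0 higher. Among those lower were rps-16 (155 and 116 reads) and rpl-12 (110 and 88). Of 75 histone genes 63 were below 0, with a median of −0.38, yet 3 passed 1.5-fold. The linker histone genes his-24 (720 and 1227 reads, log2 0.29) and hil-3 (389 and 659, log2 0.28) were on the higher side. Of 33 muscle genes 29 were below 0, with a median of −0.31, and 1 was 1.5-fold higher (3.03%) and 5 lower (15.2%). Among those below 0 were unc-54 (377 and 378 reads) and the paramyosin gene unc-15 (115 and 122).

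Reads at the genes of the larger ribosomal RNAs (rRNAs) were lower in control animals as well. The 18S, 5.8S and 26S rRNA genes, rrn-1, rrn-2 and rrn-3, had log2 differences of −0.67 to −0.54, and their part in the lower reads of the ribosomal protein, histone, major sperm protein and muscle lists was not tested. In hrde-2 animals the same genes, taken with the rRNA pseudogene rrn-3.56, went the other way, at 0.14 to 0.59. Mitochondrial rRNA genes were at −0.33 and −0.74, while the 12 protein-coding genes of mitochondrial DNA had a median of −0.05.

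Oocyte genes and known targets of the OMA proteins, the list closest to the function of oma-1, had a median of −0.18, with 35 of 49 members below 0. The 3 that were 1.5-fold higher (6.12%) and the 5 lower (10.2%) are close to the shares of all features, 8.44 and 8.71%. perm-4, a gene of the eggshell permeability barrier, had 254 and 181 reads (log2 −0.97). The yolk receptor gene rme-2 had 254 and 242 (log2 −0.55) and cbd-1, an eggshell chitin-binding gene, 303 and 305 (log2 −0.47). daz-1, an RNA-binding regulator of oogenesis that shares reads, had 177 and 391 (log2 0.66). The yolk protein genes, transcribed in the intestine, differed little: vit-2 had 2836 and 3913 reads (log2 −0.01), vit-5 3996 and 6219 (0.16) and vit-6 3430 and 4359 (−0.13), and 0 of 19 intestine genes passed 1.5-fold.

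Members of rapidly evolving receptor and ubiquitin-ligase families that reached the mean, a small part of most of these families, stood mostly on the higher side. Of 391 F-box genes and pseudogenes 50 reached the mean. Of these 34 were above 0, with a median of 0.30. At 1.5-fold 15 were higher (30%) and 2 lower (4%), where all features had 8.44 and 8.71%. fbxa-56 had 151 and 351 reads (log2 0.74) and fbxb-61 740 and 1453 (0.50). Of 113 MATH, BATH and BTB genes, which include adaptors of cullin ligases, 34 reached the mean. Of these 26 were above 0, with a median of 0.21, and 7 were 1.5-fold higher (20.6%) and 0 lower. Among the 7 was bath-31 (54 and 128 reads, log2 0.76). Of 283 nuclear hormone receptor genes 31 reached the mean, with a median of 0.18. Of these 18 were above 0 and 13 below, and 7 were 1.5-fold higher (22.6%) and 1 lower (3.23%). nhr-204 had 110 and 299 reads (log2 0.96). Only 36 of 1629 chemoreceptor genes reached the mean, with a median of 0.14, and 6 were 1.5-fold higher (16.7%) and 3 lower (8.33%). Over all 1629 the summed ratio was 0.801 (0.788 to 0.813), on the lower side. Of their 31103 and 34676 reads, sre-13, which shares reads, held 23195 and 21020. The 21 of 264 C-type lectin genes at the mean did not lean to one side: 11 were above 0 and 10 below, with a median of 0.06, and 4 were 1.5-fold higher and 1 lower. Of 62 cuticle collagen genes 3 were 1.5-fold higher (4.84%) and 4 lower (6.45%), both under the shares of all features, with a median of 0.10. Heat shock genes had a median of −0.13 over 33 and mitochondrial ribosomal protein genes −0.17 over 17. The 11 neuronal genes had a median of 0.26, with 2 at 1.5-fold higher (18.2%) and 1 lower (9.09%). The highest was unc-10, which encodes the synaptic release factor RIM, with 135 and 412 reads in control animals (ratio 2.19, 1.80 to 2.68). The hrde-2 columns held 314 and 106 reads at unc-10. Those columns were 4.08 (L4440) and 1.33 (oma-1 dsRNA) times as deep as the control L4440 column. Scaled by these depths, the hrde-2 levels at unc-10 were close on both foods, without the gain seen in control animals. The pan-neuronal gene rgef-1 was lowest, with 66 and 49 reads (log2 −0.90).

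Few genes of the RNA interference machinery themselves passed 1.5-fold, where 8.44% of all features were higher and 8.71% lower. Over the 88 genes in 5 lists of this machinery, reads numbered 10490 and 17557, a summed ratio of 1.20 (1.17 to 1.23). Of these reads the germ granule gene cgh-1, which shares reads, held 3778 and 7422 (log2 0.50). Of 21 secondary Argonaute and nuclear RNAi genes 0 were 1.5-fold higher and 1 was lower, with a median of 0.06. nrde-1, needed for nuclear silencing, had 64 and 128 reads (log2 0.52), znfx-1, a helicase gene of inherited silencing, 676 and 1262 (0.42), and wago-1, a germline secondary Argonaute, 149 and 151 (−0.46). hrde-1 had 201 and 266 reads, a ratio of 0.9503 (0.788 to 1.15), and hrde-2 had 7 and 13. Of 21 genes of dsRNA processing and primary Argonautes 0 passed 1.5-fold in either direction, with a median of −0.10. The Piwi gene prg-1 had 166 and 275 reads (log2 0.25) and ergo-1, the Argonaute of 26G RNAs, 84 and 86 (−0.44). The 14 amplification genes had a median of 0.03 and 0 past 1.5-fold, the 11 germ granule genes 0.03 with 1 lower, and the 3 uptake genes at the mean 0.27, with sid-1, which shares reads, at 164 and 326. Genes targeted by ERGO-1 and its 26G RNAs had a median of 0.03 over 19, with 0 past 1.5-fold in either direction.

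**Figure D4:**
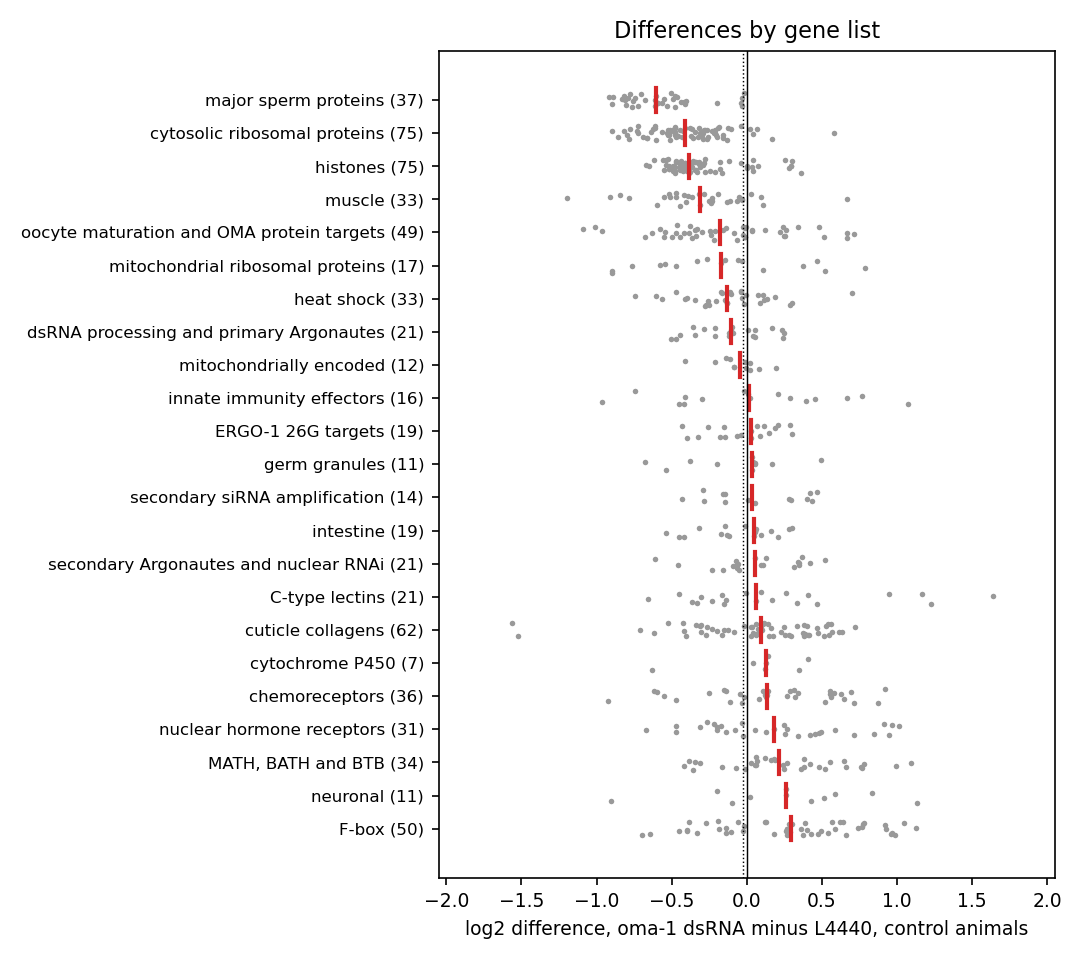
Log2 differences (oma-1 dsRNA minus L4440, control animals) of genes with a mean of 1 CPM or more in each gene list. Each point is a gene, red bars are medians, numbers in brackets count genes, the solid line marks 0 and the dotted line the median of all protein-coding genes without shared reads (−0.02). Medians run from −0.61 in major sperm protein genes to 0.30 in F-box genes.

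Most reads were counted at structural RNA genes. Nuclear tRNA genes took 59.1% of gene-assigned reads on L4440 and 53.5% with oma-1 dsRNA, 5S rRNA genes 12.997 and 18.7%, and miRNA genes 0.272 and 0.266%, where a read counted at several copies enters each time. Among 222 tRNA genes at 5 CPM in the higher column 188 were below 0, with a median of −0.34. Of these 222, 33 were 1.5-fold lower (14.9%) against 0 higher, where all features had 6.94% lower and 6.39% higher. At a mean of 1 CPM 195 of 239 were below 0, with a median of −0.31. There 35 were 1.5-fold lower (14.6%) and 4 higher (1.67%), against 8.71 and 8.44% of all features. Grouped by near-equal reads the 222 genes form 133 sets, of which 113 were below 0, with a median of −0.32. tRNA genes on chromosomes I and III were below 0 without exception (33 and 11 genes), but 24 and 7 of these share reads. Sets of near-equal reads span chromosomes, such as the 15 genes led by C12C8.t1 on I, III, IV and X. The chromosomes are therefore not separate measurements. The most covered set, K08H2.t1 with 3 others, stood at 0.14. A set of 6 led by F49C5.t2 had median reads of 207418 and 407644 and stood at 0.50, and a set of 6 led by W06G6.t1 had median reads of 387102 and 331110 and stood at −0.70.

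Most 5S rRNA genes and the genes of SL1, the spliced leader attached to the start of most worm mRNAs, lie interleaved in 1 array on chromosome V, and their reads differed by nearly the same factor in control animals. The annotated array spans 17115903 to 17132107 (WBcel235) and holds 14 rrn-4 and 12 sls-1 genes, with 23 of 25 neighbouring pairs alternating between the kinds. Each rrn-4 gene had 215645 to 219957 reads on L4440 and 419482 to 427367 with oma-1 dsRNA, with log2 differences of 0.48. Each sls-1 gene had 9678 to 11606 and 19884 to 22650 reads, with differences of 0.49 to 0.56. Outside the array, rrn-4.15 on chromosome V had 219937 and 427356 reads (log2 0.48), near those of the array copies, and rrn-4.16 on chromosome I had 7 and 9. Many of the copies carry the same counts, so that these are not 26 separate measurements. The 8 sls-2 genes compared, which encode SL2 and lie on other chromosomes, had a median of 0.21 and ranged from −0.12 to 0.50. In hrde-2 animals the kinds parted: the rrn-4 genes stood at −0.40 to −0.35 and the sls-1 genes at 0.13 to 0.16.

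**Figure D5:**
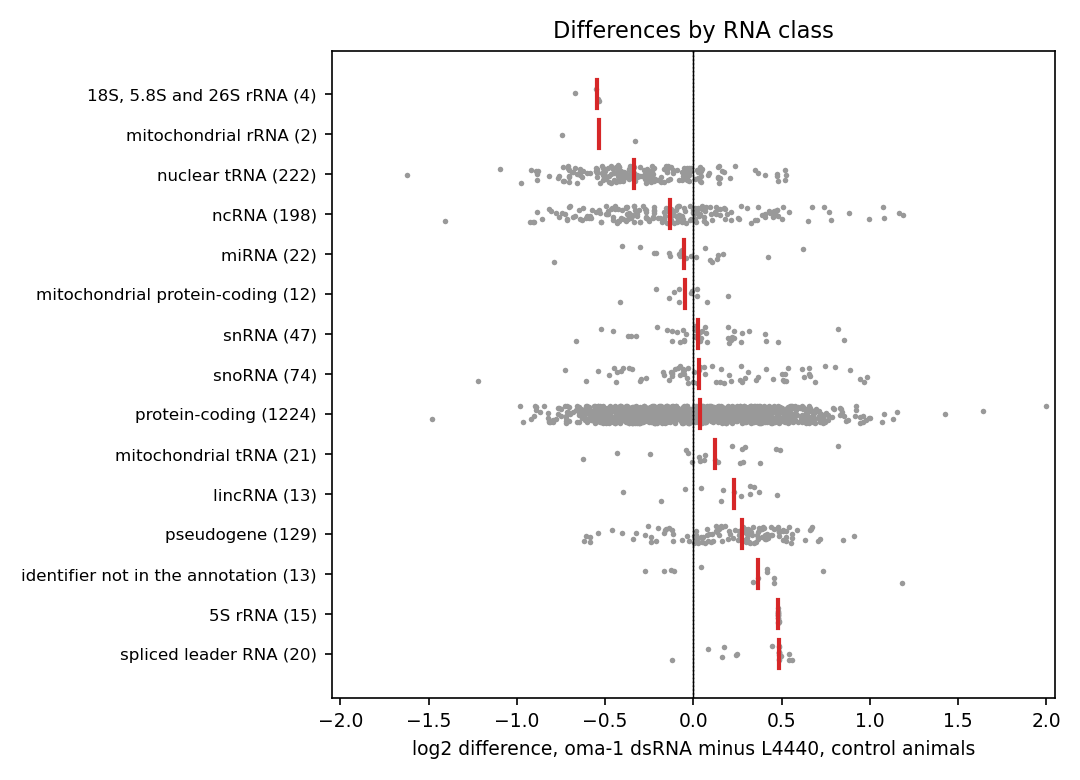
Log2 differences (oma-1 dsRNA minus L4440, control animals) of features at 5 CPM or more in the higher column, by RNA class. Each point is a feature, red bars are medians, numbers in brackets count features, the solid line marks 0 and the dotted line the median of all features; oma-1, at 7.71, is drawn at the right edge. Among classes with 4 or more features medians run from −0.55 in 18S, 5.8S and 26S rRNA genes to 0.49 in spliced leader RNA genes.

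Reads at miRNA and piRNA genes were nearly level in sum. Reads at all miRNA genes numbered 68943 and 91160, a summed ratio of 0.949, and of 22 miRNA genes compared 9 were above 0 and 13 below. mir-81 had 28531 and 36312 reads (log2 −0.13) and its family member mir-58.1 14625 and 22481 (0.14). mir-42, of the embryonic mir-35 family, was lowest at 20 CPM, with 454 and 366 (−0.79). Annotated piRNA genes held 1225 and 1842 reads in all, a ratio of 1.08. Small nuclear RNA genes had a median of 0.02 over the 47 at 5 CPM. Small nucleolar RNA genes had a median of 0.03 over the 74 at 5 CPM and of 0.13 over the 116 at a mean of 1 CPM. At that mean 16.4% were 1.5-fold higher and 3.45% lower, and ZK643.9 had 1784 and 1501 reads (log2 −0.73). smy-3, with 3754 and 9113 reads (log2 0.80), was counted in this class. Other smy genes, among them smy-1, smy-6, smy-9 and smy-10, were counted as small nuclear RNA genes, so the family is split between the classes. Of 283 pseudogenes that derive from neither rRNA nor tRNA, 206 were above 0, with a median of 0.21 and 12.01% at 1.5-fold higher and 4.59% lower, and lips-16 had 528 and 1322 reads (log2 0.85).

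By chromosome, protein-coding genes without shared reads stood highest on X. Over 419 genes on X with a mean of 1 CPM or more the median log2 difference was 0.07, with 14.1% at 1.5-fold higher and 7.64% lower. On the autosomes the medians were slightly below 0, down to −0.05 on chromosome I, and above 0 under other scalings, and the higher shares were 5.98 to 9.81%. As a check on the tissue, the markers chosen for germline, intestine, muscle, neurons and hypodermis all had reads on at least 1 food, though these count small RNAs at the genes and not their mRNA. Their summed ratios were 0.833 (0.764 to 0.907) for 6 germline markers, lowest at rme-2 (0.684) and cbd-1 (0.723) and near 1 at gld-1 (0.990), glh-1 (1.03) and pgl-1 (1.04). They were 0.762 (0.686 to 0.848) for 3 muscle markers and 2.08 (1.72 to 2.52) for 3 neuronal markers, of which unc-10 held nearly all reads. The 3 sperm and 2 intestine markers outside the large families had ratios whose intervals hold 1.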

How the data were processed

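Read counts per WormBase gene were deposited by the authors in 1 column per group, per the file headers, and how the 3 samples were merged is not stated in those headers. A second block holds a signal that the authors obtained by dividing each count by 1 constant per column (1 and 1.34 for the control columns). It was used only to read these constants. HTSeq 0.6.1 is named in the submitters' processing notes. The sources used here do not give the aligner, build, annotation, strand setting or treatment of multiply matching reads. Reads assigned to genes were 38.7 and 40.1% of all reads listed in the control columns, and 41.3 and 40.4% were ambiguous and left out.

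Names and positions came from annotation of build WBcel235 (46364 of 46726 identifiers matched) and RefSeq. Filtering (filterByExpr, minimum count 10, total 15) and TMM used edgeR 4.0.16 in R 4.3.3 over all 4 columns. Log2 differences carry a prior count of 0.5. Features were described singly from 5 CPM in the column where they were higher, which is 81.8 and 113.9 reads. Ratios carry exact conditional binomial (Clopper-Pearson) and levels exact Poisson 95% intervals (scipy 1.17.1). A gene was marked as sharing reads where it overlaps a structural RNA or miRNA gene, or where another gene had reads within 5% or 15 reads in every column at 1000 reads or more in total. Genes with fewer reads could share reads unmarked. The functions were tested on simulated data. Members, lists and rules were chosen with earlier results of these data known. Named genes are hrde-1, hrde-2, oma-1 and oma-2, the protein-coding genes past 2-fold, the 10 highest and lowest protein-coding genes and 5 highest and lowest of each RNA class at 20 CPM, the 5 most covered of a class, up to 4 members of a list, the neighbours of oma-1, and features found by the interval rule. Other list members named were chosen after their values were seen.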

Additional observations from a re-analysis of the deposited data

How the results depend on the processing

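The log2 difference at oma-1 lay between 7.63 and 7.79 under all scalings, filters, floors and prior counts tried. The 13 features that were 2-fold higher became 21 under library size alone, 23 under the authors' constants, 25 under factors from miRNA genes, 5 at a floor of 10 CPM, 59 at a floor of 2 CPM and 7 with shared features left out. The 6 lower features became 39 at a floor of 2 CPM. The 5 higher protein-coding genes without shared reads became 10 under library size, the authors' constants and miRNA factors alike, 8 under TMM over such genes, 2 at 10 CPM and 40 at 2 CPM, and the 1 lower gene became 29 at 2 CPM. The median of the protein-coding class, 0.04, was −0.0296 at a floor of 2 CPM. The floors of 10 and 2 CPM and the removal of shared features also change how many features are compared. Those counts are therefore not shares of the same 2018 features. The cause of the other changes was not tested.

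By the interval rule, added after the data had been seen, 16 to 23 features were higher, 5 to 7 were lower, and 5 to 7 of the higher ones lay above 2-fold in hrde-2 as well. The 69 features above 2-fold in hrde-2 became 22 under library size alone, 34 under the authors' constants and 36 with shared features left out. The hrde-2 ratio ran from 3.15 to 4.07 at moe-3, from 13.4 to 17.3 at nas-33 and from 12.7 to 16.4 at nlp-79 over the scalings.

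No paired analysis was possible because the 3 replicates of each group are pooled in 1 column, so leaving out a replicate was also not run. The comparison of genes by sequence match to oma-1 was not run, since no transcript sequences were used here. With 37 reads at oma-1 and 3 at moe-3 on L4440, the size of their gain is limited by depth on that food.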
